A study of Arabidopsis thaliana with 12 samples.

Results

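GASA peptides (gibberellic acid-stimulated in Arabidopsis) were followed through the transcriptomes of *Arabidopsis thaliana* seedlings. The members were the loci of both deposited comparison tables whose gene name is *GASA1*, *GASA2*, *GASA3*, *GASA4*, *GASA5*, *GASA6*, *GASA10* or *GASA14*. Of these 8 names, 6 were held by a locus of their own among the 36101 loci of each table, and *GASA10* and *GASA14* were not used as gene names there. The set was chosen with a measured value in view, the low level of *GASA5* after oxo-C14-HSL in the table labelled *ali1*, so that value is a description. The reference annotation describes 10 further loci as gibberellin-regulated family proteins. One of them, *AT5G14920*, has *GASA14* as a synonym, and these loci are given separately.

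Seedlings grown for 2 weeks, labelled Col-0 (wild type) or *ali1* (the T-DNA insertion line N560407 in *At5g14470*, in the Columbia-0 background), were pretreated for 3 days with acetone, the solvent, or with 6 µM oxo-C14-HSL, a bacterial quorum sensing molecule. All groups, the acetone controls included, were then challenged for 2 h with 100 nM flg22, a peptide of bacterial flagellin. Hence no group shows the seedlings without flg22. Each of the 4 groups had 3 libraries, and the comparison asks how the pretreatment changed the transcriptome under each label. The files give each group a single FPKM, a fragment count normalized for transcript length and library size. Values of single libraries are not among them, and therefore no spread is given, no test was run, and every difference named here is one between such values.

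The targeted gene was not lower under the mutant label. *ALI1* (*AT5G14470*, chromosome 5, 4662775 to 4664681) stood at 15.0 FPKM (acetone) and 11.1 FPKM (oxo-C14-HSL) under the Col-0 label, and at 27.4 and 30.1 FPKM under the *ali1* label. It was thus 1.83 and 2.72 times as high under the mutant label, across tables normalized in separate runs. In addition, the description of each sample names the table of the other genotype, against its title. The group names given with the values match the titles. Whether the tables or labels were exchanged was not tested. Groups are therefore called by their labels, taken from the titles, and every statement on Col-0 or *ali1* would change places if they were exchanged.

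GASA proteins are small, secreted peptides of plants, related to the GAST1 protein of tomato and to the snakins of potato, which act against microbes. They share a domain at the carboxy-terminal end with 12 cysteines at conserved spacing, which form disulfide bridges. Gibberellin, a growth hormone that acts by the removal of the DELLA repressor proteins, raises the transcripts of several family members and lowers those of others. In Arabidopsis, *GASA4* and *GASA6* are known as genes that gibberellin induces, and *GASA5* as one that it represses. *GASA5* has been described as a negative regulator of thermotolerance and of flowering.

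The coding sequence of this domain is shown for *GASA5* and for the 3 members whose levels are set beside it, since the shared cysteine codons are what defines the family. The last 60 codons before the stop codon are given in RefSeq's TAIR10.1 sequence, spliced, 5′ to 3′ on the coding strand, with the codons of cysteine in capitals.
GASA5: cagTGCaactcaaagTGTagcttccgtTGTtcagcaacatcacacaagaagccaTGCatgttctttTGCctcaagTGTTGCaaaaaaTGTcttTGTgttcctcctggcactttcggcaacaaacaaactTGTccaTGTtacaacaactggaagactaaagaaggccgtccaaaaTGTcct
GASA6: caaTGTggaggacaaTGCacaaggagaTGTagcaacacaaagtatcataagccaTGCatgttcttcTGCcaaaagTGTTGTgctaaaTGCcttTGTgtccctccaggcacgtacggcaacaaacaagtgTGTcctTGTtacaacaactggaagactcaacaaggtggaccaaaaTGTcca
GASA4: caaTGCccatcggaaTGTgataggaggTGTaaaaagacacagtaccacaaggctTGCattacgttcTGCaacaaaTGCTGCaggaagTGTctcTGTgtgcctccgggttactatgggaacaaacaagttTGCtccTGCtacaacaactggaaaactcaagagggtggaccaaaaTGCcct
GASA1: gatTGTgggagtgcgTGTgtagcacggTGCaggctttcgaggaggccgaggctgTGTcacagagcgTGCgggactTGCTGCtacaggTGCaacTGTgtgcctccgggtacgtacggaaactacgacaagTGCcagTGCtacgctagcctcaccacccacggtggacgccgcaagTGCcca
These stretches lie at chr3:638326-638740 on the minus strand (*GASA5*), chr1:28053631-28053890 on the plus strand (*GASA6*), chr5:4945473-4946022 on the plus strand (*GASA4*) and chr1:28441816-28442077 on the minus strand (*GASA1*), each interrupted by 1 intron. All 4 hold 12 cysteine codons at the same positions. Over all 16 family loci, 15 hold 12 such codons in the last 60, and 12 share the spacing of *GASA5*. The exception in number was *AT5G06645*, annotated as gibberellin-regulated-like, with 5. Base by base and without gaps, *GASA6* was closest to *GASA5* with 71.1% of bases identical. *AT2G30810* and *AT3G10185* followed with 68.3% each and *GASA4* with 65%, while the other 7 loci of the same spacing shared 45% to 56.1%. *GASA1* shared 45%.

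The levels of the family spanned from no fragment to 681 FPKM. *GASA1* was the most abundant of the 16 loci in every group, followed by *AT1G22690* and *AT5G14920* (*GASA14*). *GASA4* was of intermediate level, and *GASA5* and *GASA6* were low. Per length and on the FPKM scale, the order of the neighbours *GASA5* and *AT2G14900* was the same in the 4 groups, whereas the order of *GASA6* and *AT3G10185* was not. With 1 value per group it cannot be said which neighbours in that order differ beyond their spread.

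**Figure D1:**
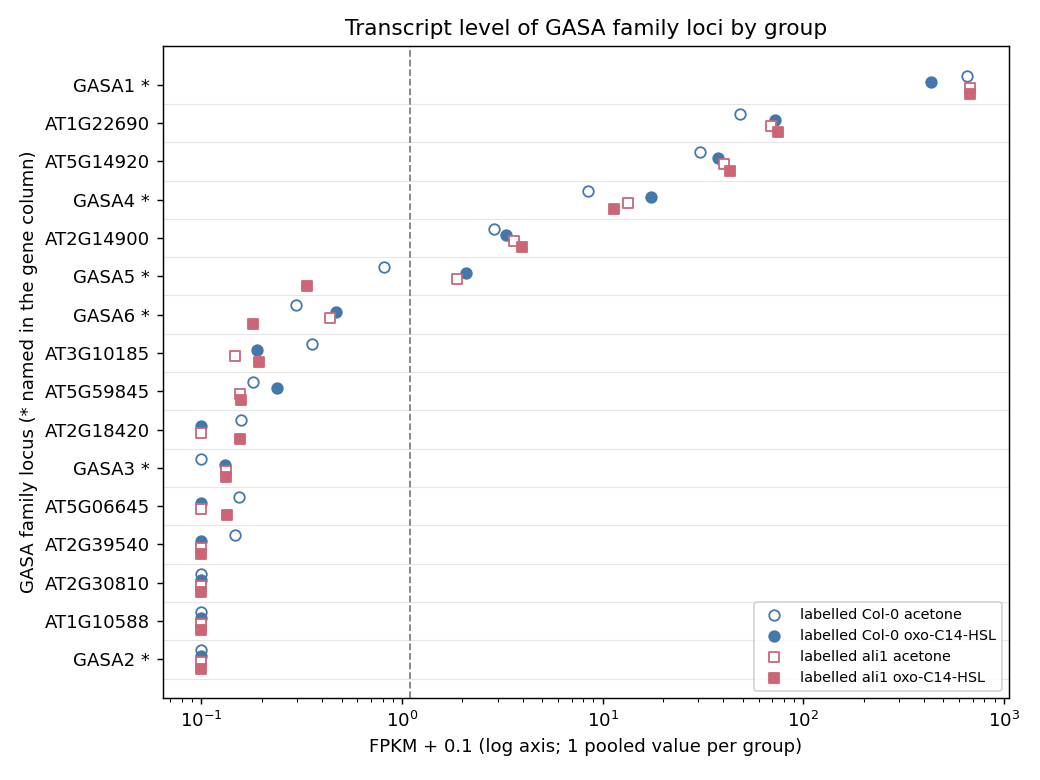
FPKM plus 0.1 on a log axis for the 16 GASA family loci, 1 point per group, with open symbols for acetone and filled symbols for oxo-C14-HSL. The dashed line marks the minimum of 1 FPKM. The 4 points of *GASA1* lie between 433 and 681 FPKM, and those of *GASA5* between 0.238 and 1.99 FPKM, the widest spread in ratio among the loci with a mean of at least 1 FPKM.

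*GASA5* (*AT3G02885*, chromosome 3, 637921 to 639242, minus strand, 3 exons) had 0.709 FPKM in the acetone group and 1.99 FPKM in the oxo-C14-HSL group labelled Col-0. In the groups labelled *ali1* it had 1.79 FPKM with acetone and 0.238 FPKM with oxo-C14-HSL. The level was thus 2.81 times as high after oxo-C14-HSL under the Col-0 label and 7.53 times as high after acetone under the *ali1* label, which is the value the choice of the gene rests on. By an estimate of what 1 fragment is worth, from the lowest loci, these levels correspond to about 34, 101, 87 and 12 fragments. A preset range sets the scale of this estimate, and the numbers would be sums over the 3 libraries of each group. By this estimate the gene was counted in few fragments, and the group with the lowest level had the fewest.

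On the log2 scale with 0.1 added to both values, *GASA5* was higher by 1.37 under the Col-0 label and changed by −2.48 under the *ali1* label. Among the 16858 loci with a mean of at least 1 FPKM under the Col-0 label, 266 or 1.58% were higher by at least 1 on this scale, and 84 were as high as *GASA5* or higher. Among the 16766 such loci under the *ali1* label, 91 or 0.543% were lower by at least 1, and 21, *GASA5* included, were as low. *GASA5* was chosen for this fall, so its rank there is a description. Wide differences were more frequent at low levels: of loci with a mean of 1 to 2 FPKM, the band in which *GASA5* lies, 7.05% were higher by at least 1 under the Col-0 label and 2.47% lower under the *ali1* label. The median log2 difference of that band was 0.25 under the Col-0 label and −0.0027 under the *ali1* label. With 1 instead of 0.1 added to both values, the log2 difference of *GASA5* under the Col-0 label was 0.81, below the threshold of 1, and that under the *ali1* label was −1.17.

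Set against each other, the log2 differences of *GASA5* were 3.85 apart (Col-0 label less *ali1* label). Of the 16528 loci measured in both tables, 423 or 2.56% were at least 1 higher on this scale, and 16 were at least as far apart as *GASA5*. A rise of at least 1 under the Col-0 label together with a fall of at least 1 under the *ali1* label was listed for 20 loci, or 0.121%, *GASA5* among them. The gap and this pattern both contain the fall for which *GASA5* was chosen. Its place in these counts is therefore a description. The level of *GASA5* after acetone was 2.52 times as high under the *ali1* label as under the Col-0 label, and after oxo-C14-HSL 8.37 times as high under the Col-0 label. These last ratios span tables normalized in separate runs.

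**Figure D2:**
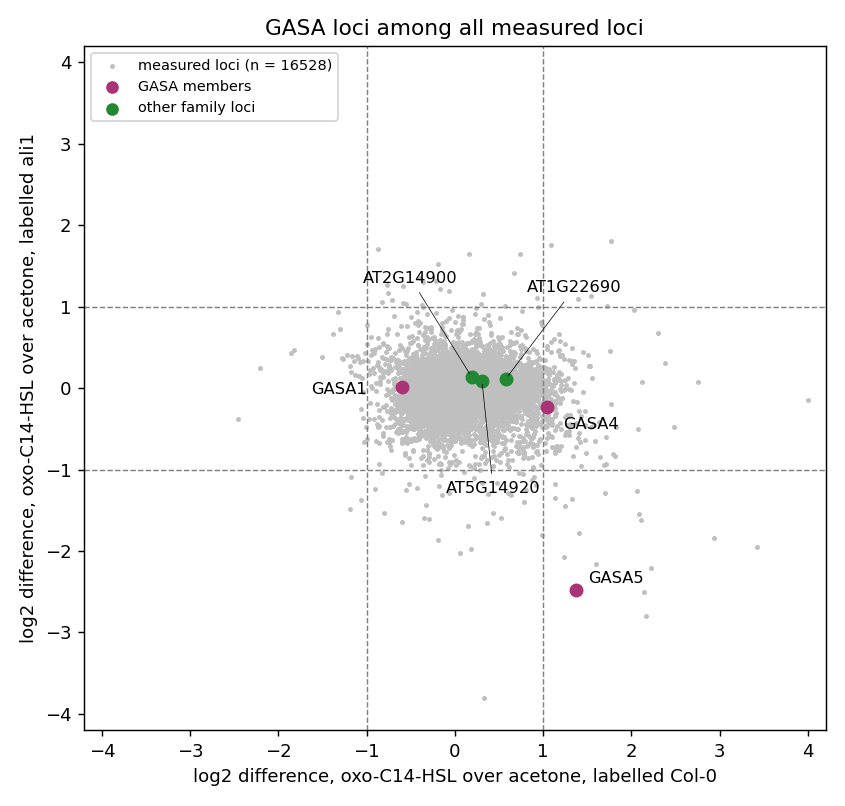
Log2 difference between oxo-C14-HSL and acetone (0.1 FPKM added) under the Col-0 label on the horizontal axis and under the *ali1* label on the vertical axis, for 16528 loci with a mean of at least 1 FPKM in both tables. Dashed lines mark differences of 1 and −1, and 24 loci lie outside the axes. *GASA5* lies at 1.37 and −2.48, away from the other GASA loci, and *GASA4* at 1.04 and −0.24.

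*GASA6* (*AT1G74670*, chromosome 1, 28053030 to 28054149, plus strand), which promotes germination and elongation growth and is nearest to *GASA5* in the domain sequence shown above, stayed below the minimum of 1 FPKM in both tables and was not counted. It had 0.195 FPKM (acetone) and 0.368 FPKM (oxo-C14-HSL) under the Col-0 label, and 0.340 and 0.0801 FPKM under the *ali1* label. The 4 groups stood in the same order as for *GASA5*, with the oxo-C14-HSL group labelled Col-0 highest and the oxo-C14-HSL group labelled *ali1* lowest. By the same estimate about 10, 20, 18 and 4 fragments lie behind these values, so that differences between them are poorly resolved. The deposited locus of *GASA6* ends at 28055437, beyond the annotated gene.

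*GASA4* (*AT5G15230*, chromosome 5, 4944816 to 4946299, plus strand, 4 exons) encodes a GASA peptide for which redox activity through its cysteines has been described. Seedlings labelled Col-0 had 8.33 FPKM with acetone and 17.3 FPKM with oxo-C14-HSL, and seedlings labelled *ali1* 13.3 and 11.3 FPKM. By the same estimate about 351, 767, 568 and 484 fragments lie behind these values. The level was thus 2.07 times as high after oxo-C14-HSL under the Col-0 label, while under the *ali1* label it was 1.18 times as high after acetone. The log2 difference was 1.04 under the Col-0 label, where 0.737% of loci with a mean of 5 to 20 FPKM were higher by at least 1, and −0.24 under the *ali1* label. The differences were 1.28 apart (Col-0 label less *ali1* label). The value under the Col-0 label lies close to the threshold, and with 1 added to both FPKM values it was 0.97. Between the acetone groups, *GASA4* was 1.59 times as high under the *ali1* label, across the separate tables.

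*GASA1* (*AT1G75750*, chromosome 1, 28441501 to 28442435, minus strand, 3 exons) is regulated by gibberellin and brassinosteroid in opposite directions. Under the Col-0 label it had 658 FPKM with acetone and 433 FPKM with oxo-C14-HSL, and under the *ali1* label 675 and 681 FPKM. The oxo-C14-HSL group labelled Col-0 was the lowest, and the other 3 groups lay within 658 to 681 FPKM. The log2 difference was −0.60 under the Col-0 label, where 276 of 16858 loci were as low, *GASA1* included, and 0.013 under the *ali1* label. Neither passed the threshold of 1. Thus *GASA1* had the opposite sign to *GASA4* and *GASA5* under the Col-0 label. Among loci with a mean of at least 100 FPKM under that label, the median was −0.087 and 5% lay at or below −0.519. Centred on the median of that band, *GASA1* was at −0.515.

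The tandem pair *GASA3* (*AT4G09600*) and *GASA2* (*AT4G09610*) on chromosome 4, known for their transcripts in seeds and siliques, was nearly silent in these seedlings. *GASA2* was listed at 0 in all 4 groups. *GASA3* was listed at 0 in the acetone group labelled Col-0 and at 0.0316 to 0.0330 FPKM in the others. By the same estimate that is about 1 fragment each. The 4 seed storage and oil body genes used as markers of seed tissue (*CRA1*, *CRU3*, *SESA1* and *OLEO1*) summed to 0.316 to 0.680 FPKM per group, so seed transcripts were near 0 as well.

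In all, 3 of the 6 members had a mean of at least 1 FPKM, *GASA1*, *GASA4* and *GASA5*, and passed this filter in both tables. Of these 3, 2 were higher by at least 1 after oxo-C14-HSL under the Col-0 label (1.58% of all loci) and 0 lower (0.415% of all loci). Under the *ali1* label 0 were higher (0.34% of all loci) and 1 was lower (0.543% of all loci). Of the differences between labels, 2 were higher by at least 1 (2.56% of all loci) and 0 lower (0.75%). As *GASA5* was part of the choice, nothing is read from its share in these counts. In both tables the filter was passed by *GASA5* through its higher group, since 1 group in each table was below 1 FPKM.

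Of the 10 other family loci, 3 were above the minimum, and 0 of these passed the threshold under either label. They were *AT1G22690*, *AT2G14900* and *AT5G14920* (*GASA14*, which limits the accumulation of reactive oxygen species). Under the Col-0 label all 3 had a higher value with oxo-C14-HSL, as had 46.8% of all measured loci (median log2 difference 0.31, against −0.017). *AT1G22690* (chromosome 1) had 48.2 and 71.9 FPKM under the Col-0 label (log2 difference 0.58) and 68.8 and 74.3 under the *ali1* label (0.11). Its deposited locus extends beyond the gene, to 8030136. For *AT5G14920* (chromosome 5) the values were 30.4 and 37.7 under the Col-0 label (0.31) and 40.3 and 42.9 under the *ali1* label (0.091).
*AT2G14900* (chromosome 2) had 2.79 and 3.19 FPKM under the Col-0 label (0.19) and 3.50 and 3.86 under the *ali1* label (0.14). In each of these 3 loci the acetone group labelled Col-0 was the lowest of the 4 groups. Under the *ali1* label the 3 log2 differences were above 0 as well, as were 53.2% of all measured loci (median 0.11 against 0.010). The 7 remaining loci, *AT1G10588*, *AT2G18420*, *AT2G30810*, *AT2G39540*, *AT3G10185*, *AT5G06645* and *AT5G59845*, reached at most 0.256 FPKM in any group, and 2 of them, *AT1G10588* and *AT2G30810*, were listed at 0 in all 4 groups.

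Genes of gibberellin synthesis, inactivation and perception were examined next, from 3 lists of 37 genes, all held by the tables. Under the Col-0 label 18 were measured, 9 of them with a log2 difference above 0, against 46.8% of all measured loci (median 0.012 against −0.017). Under the *ali1* label 19 were measured, 6 of them above 0, against 53.2% of all measured loci (median −0.075 against 0.010). The threshold of 1 was passed by 0 genes in either table, against 1.58% and 0.415% of all loci higher and lower under the Col-0 label and 0.34% and 0.543% under the *ali1* label.
Most oxidases that make active gibberellin were below 1 FPKM, among them *GA20OX1*, *GA20OX2*, *GA3OX1* and *GA3OX2*. *GA3OX1*, a 3-oxidase of the last step of synthesis, had 0.386 and 0.809 FPKM under the Col-0 label and 0.604 and 0.721 under the *ali1* label. *GA2OX2*, a 2-oxidase that inactivates gibberellin, had 2.88 and 3.65 FPKM under the Col-0 label and 3.27 and 2.15 under the *ali1* label, log2 differences of 0.33 and −0.58. Among the DELLA repressors, *RGL3* had log2 differences of 0.39 and −0.48 and *GAI* of 0.48 and −0.21, while *RGA* (listed as *RGA1*) at 25.2 to 26.2 FPKM, had −0.032 and 0.0026. The receptor *GID1B* had 39.2 and 32.5 FPKM under the Col-0 label and 40.2 and 35.6 under the *ali1* label. Of the 18 genes measured in both tables, 8 had the signs of *GASA5*, higher under the Col-0 label and lower under the *ali1* label (19.6% of all loci measured in both), and 5 had the reverse signs (26.6% of all loci). *RGL3*, *GAI* and *GA2OX2* were among the 8 and were singled out after their values were seen. The shares over all loci are not matched for level. Under the Col-0 label *RGL3* had 1.00 and 1.35 FPKM, and *GAI* 2.37 and 3.34. There 73.3% of loci at a mean of 1 to 2 FPKM and 65.5% at 2 to 5 were above 0, against 30.1% at 20 to 100. In the plot of pathway genes, the value of *GA3OX4* belongs to a locus of 3 genes and that of *KAO1* to a locus of 2. Neither can be split, and both are among the 4 synthesis genes measured.

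**Figure D3:**
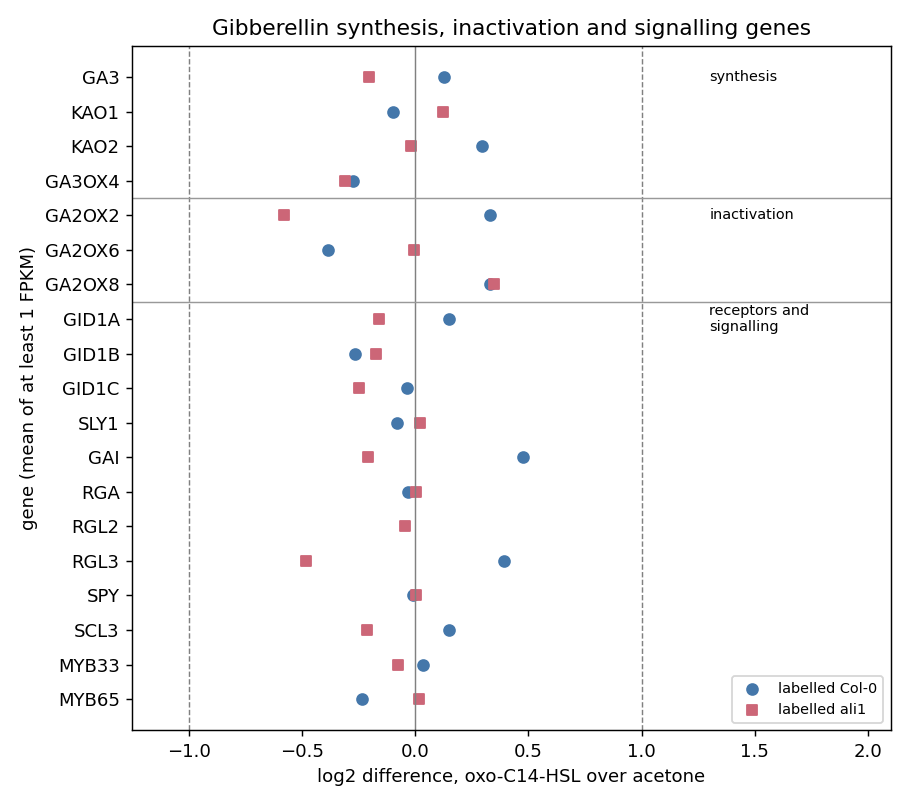
Log2 difference between oxo-C14-HSL and acetone (0.1 FPKM added) for the gibberellin genes with a mean of at least 1 FPKM, circles for the Col-0 label and squares for the *ali1* label. All points lie between the dashed lines at 1 and −1, the lowest being *GA2OX2* under the *ali1* label (−0.58) and the highest *GAI* under the Col-0 label (0.48).

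By the distance between pairs of log2 differences, the 5 loci most like *GASA5* among 15134 measured loci with 1 named gene were *RCI2B* (distance 0.435), *AT2G41800* (0.705), *AT5G01870* (0.772), *AT4G08780* (0.779) and *AT3G16670* (0.860). *RCI2B*, a small hydrophobic membrane protein of the cold and salt response, had 0.623 and 1.60 FPKM under the Col-0 label and 2.11 and 0.426 under the *ali1* label. The reference describes *AT5G01870* as a lipid-transfer protein, *AT4G08780* as a peroxidase, *AT3G16670* as a pollen Ole e 1 and extensin family protein and *AT2G41800* as a protein of unknown function with a DUF642 domain. This likeness rests on 4 values per locus and was chosen from them, and it carries no test.

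The seedlings hold roots and shoots, and fewer cells of a type and less RNA per cell cannot be told apart in such samples. Markers of both organs were read beside the GASA values. Of 12 root markers, 7 were measured under the *ali1* label and all 7 were higher after oxo-C14-HSL, against 53.2% of all measured loci. They were higher by 0.051 to 0.91 (median 0.62), led by the Casparian strip genes *CASP4* (0.91) and *CASP1* (0.76). Under the Col-0 label 6 were measured and 3 were higher, against 46.8% of all measured loci (median −0.019, range −0.54 to 0.44). Of the 6 measured in both tables, *CASP1* and *CASP4* had a difference between labels below −1 (−1.30 and −1.22), opposite in sign to that of *GASA5*. Among all loci measured in both tables, 0.75% were lower by at least 1. The summed level of the 12 was 454 FPKM after acetone and 603 after oxo-C14-HSL under the Col-0 label, and 489 and 515 under the *ali1* label, most of it *PYK10*. The 10 green shoot markers differed by −0.11 to 0.35 under the Col-0 label and by −0.20 to 0.088 under the *ali1* label. Their summed level was 24491 to 27182 FPKM, and *CA1* and *PSBP-1* belong to loci of 2 genes each. Of 3 shoot meristem markers, only *KNAT1* reached the minimum, with log2 differences of 0.17 and 0.23. *STM*, which maintains the shoot meristem, had 0.311 and 0.709 FPKM under the Col-0 label and 0.557 and 0.560 under the *ali1* label, and *LAS* had 0.614 and 0.871, and 0.639 and 0.601. Both lay below 1 FPKM and were higher with oxo-C14-HSL under the Col-0 label. Under that label 73.3% of loci at a mean of 1 to 2 FPKM were above 0. No share was taken among loci as low as *STM* and *LAS*. *GASA4* was also higher under the Col-0 label, and the part of the meristem in that difference was not tested.
Markers of the root hair and the growing root tip were below 1 FPKM in all groups. *PIN2* (listed as *EIR1*), an auxin carrier of the root tip, had 0.0607 and 0.653 FPKM under the Col-0 label and 0.718 and 0.339 under the *ali1* label. The root hair genes *PRP3*, with 0.0145 and 0.138 under the Col-0 label and 0.276 and 0 under the *ali1* label, and *EXPA7*, with 0.0457, 0.0909, 0.197 and 0.0779, had the signs of *GASA5* within each table, and so did *PIN2*. *COBL9* (listed as *SHV2*), a further root hair gene with the same signs, was at most 0.0412 FPKM. Of all loci measured in both tables, 19.6% had these signs, and no share was taken among loci below 1 FPKM. These markers lay below that minimum and were singled out after their values were seen. Their part in the difference of *GASA5* was not tested.

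**Figure D4:**
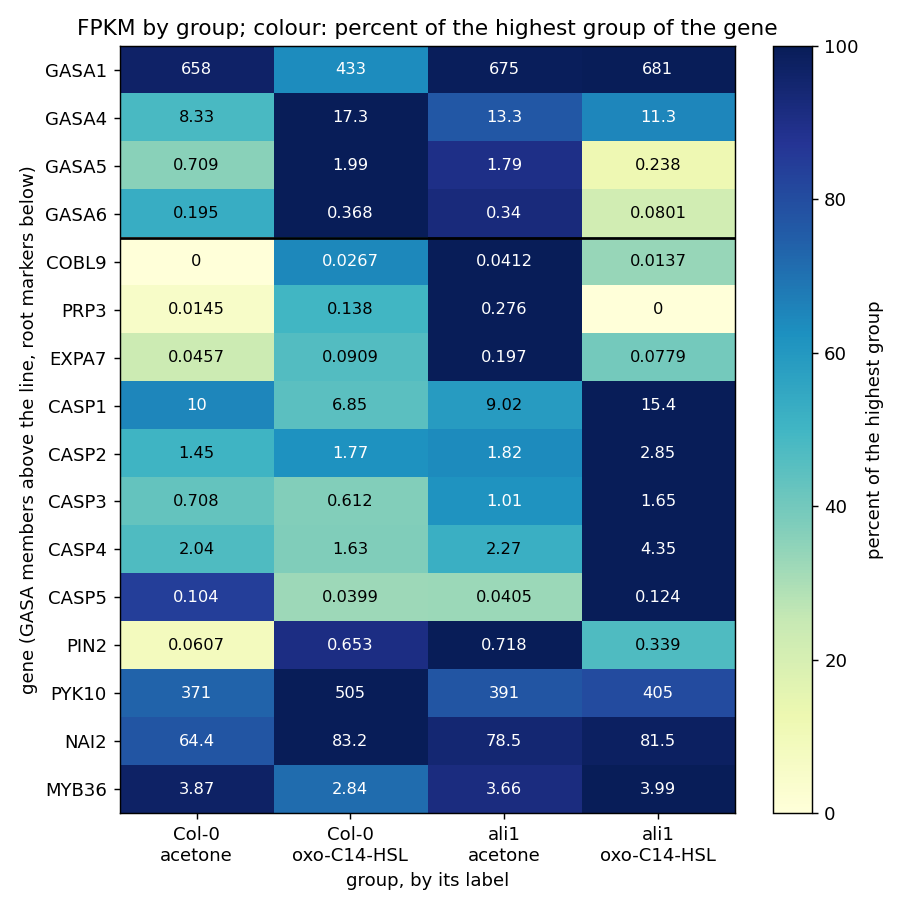
FPKM of 4 GASA members (above the line) and 12 root markers (below), 1 column per group, printed in each cell and coloured by the percent of the highest group of the gene. *GASA5*, *GASA6*, *PIN2*, *PRP3*, *EXPA7* and *COBL9* are higher after oxo-C14-HSL under the Col-0 label and lower under the *ali1* label, and the 5 *CASP* genes are highest in the oxo-C14-HSL group labelled *ali1*.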

How the data were processed

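RNA was sequenced as 100 bp single-end reads from 12 libraries, 3 per group. The authors aligned the reads with RNAStar and made the values with cufflinks 2.2.1.0, cuffmerge and cuffdiff 2.2.1.5, and the submitters' processing notes name TAIR10. The FPKM values the authors deposited pool the 3 libraries of a group and come from a separate cuffdiff run for each label. The files also hold the authors' fold changes, test statistics, p-values and q-values, which were not used. The sample titles gave the groups and match the group names given with the values. The description field names the table of the other genotype and was not used.

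The log2 difference was taken from the FPKM values after adding 0.1, at loci with a mean of at least 1 FPKM in that table, and a difference of at least 1 was counted. Under the *ali1* label 44 loci that cuffdiff marked as having too many fragments were left out. Of 36101 loci, 1646 hold several genes, and reads of overlapping or similar genes cannot be told apart. Every locus lies within the chromosomes of the reference. The sources used here do not give depth per library. What 1 fragment is worth was estimated from 864 to 932 low loci per group, as the median of FPKM times length inside a preset range. This gave depths of 1.00 to 1.06 relative to the acetone group labelled Col-0. The preset range limits how far these depths can differ and sets the scale of the fragment numbers, which are approximate.

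The members, the lists of gibberellin and marker genes and the thresholds were chosen with earlier results of these data known. All members, all other family loci, *ALI1*, the 5 loci nearest to *GASA5* and pathway genes past the threshold were to be named. As 0 pathway genes passed it, those described were chosen after their values were seen, as were the root markers singled out. The files hold no value per library, so no test was run here, and each value pools 3 libraries. Alternatives covered the pseudocount, the filter, centring, the fold threshold and loci with 1 gene. Python 3.11.15, numpy 2.4.6, pandas 2.3.3 and matplotlib 3.10.9 were used. The qPCR, pathogen and binding experiments were not analysed here.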

Additional observations from a re-analysis of the deposited data

How the results depend on the processing

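Of 66 recomputed log2 differences of *GASA1*, *GASA4* and *GASA5*, 63 kept their side of the threshold, and none changed sign. Part of this was fixed in advance. The changed filters and the limit to loci with 1 gene return the same value for any locus they keep. Of 63 recomputed counts of loci past the threshold, 54 stayed within 1.5 times the reported count. Many of these 54 were counts of 0 among pathway genes and other family loci that stayed at 0, and such a count cannot fall. With a pseudocount of 1, 0 members passed the threshold of 1 under the Col-0 label in place of 2, as *GASA5* came to 0.81 and *GASA4* to 0.97. With a filter at a mean of 5 FPKM, 1 member passed under the Col-0 label, 0 under the *ali1* label and 1 for the difference between labels (2 with the filter at 1), because *GASA5* is then left out. Without a filter, 2 members passed under the *ali1* label (*GASA5* and *GASA6*) and 3 for the difference between labels (*GASA6* added, at 1.95). The difference between labels then passed for 3 other family loci, each with an estimated 7 fragments or fewer, and 2 pathway genes. At a threshold of 0.5, 3 members passed under the Col-0 label, *GASA1* as lower (−0.60), and 1 other family locus passed under the Col-0 label and 1 pathway gene under the *ali1* label. Centring each locus on the median of its FPKM band, chosen after seeing the data, gave *GASA5* 1.12 and *GASA4* 1.06 under the Col-0 label.

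No paired analysis was possible because the files hold 1 value per group, and for the same reason leaving out a library was not done. The low estimated fragment numbers of *GASA5* and *GASA6* limit how well their ratios are known.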
